A study of Mus musculus with 8 samples.

Results

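The clustered protocadherin genes were examined in 8 lines of mouse embryonic fibroblasts (MEFs), 4 of them SLMAP3-/- and 4 WT. The genes were chosen by symbol alone, as every listed gene named Pcdha, Pcdhac, Pcdhb, Pcdhga, Pcdhgb or Pcdhgc followed by a number. This gave 58 of the 55401 listed genes, with 14 in the alpha, 22 in the beta and 22 in the gamma cluster. In GRCm38 all of them lie on the plus strand of chromosome 18, with the alpha cluster from 36930184 to 37187661, the beta cluster from 37264938 to 37524479 and the gamma cluster from 37661793 to 37841873. The symbol Pcdha11 stands on 2 rows, ENSMUSG00000007440.10 and ENSMUSG00000102206.5, and they are kept apart here. The first starts at 37005203, 117 bases from the start of the RefSeq gene Pcdha10 of the same build, and the second starts 146 bases from that of RefSeq's Pcdha11.

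Each line came from 1 embryo of the B6C3F1 strain at E14.5, whose head and organs were removed before the cells were isolated, and each was sequenced as 1 library. SLMAP3-/- embryos carried a global deletion of the floxed exon 3 of Slmap, made with Cre under a CMV promoter. All 8 lines, the WT lines included, were immortalized with SV40 large T antigen, so neither genotype represents primary cells. The p-values below set the difference between genotypes against the spread between these lines within a genotype.

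Clustered protocadherins are adhesion proteins of the cell surface that bind copies of themselves on neighbouring cells. Each gene has its own promoter and a large first exon that encodes the extracellular part, and in the alpha and gamma clusters this exon is spliced to constant exons that every member of the cluster shares. Beta genes have a single coding exon and no constant exons. In neurons each cell uses a small set of promoters, under the control of the insulator protein CTCF, cohesin and DNA methylation, and the resulting combination gives the cell a surface identity. The C-type genes (Pcdhac1, Pcdhac2, Pcdhgc3, Pcdhgc4 and Pcdhgc5) lie at the ends of the alpha and gamma clusters and are regulated apart from the others.

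Slmap, the targeted gene, had 7183 to 8267 counts in WT and 1635 to 2561 counts in SLMAP3-/- MEFs, a log2 fold change of -1.84 (edgeR adjusted p of 0.00119), so the genotype labels match the gene. Over all genes, WT lines held 49879059 to 63322486 estimated counts each, and SLMAP3-/- lines 50952494 to 59854680. All 10 fibroblast markers passed the filter on low counts, with summed levels of 15716 to 21393 CPM (counts scaled to a library of 1000000, with TMM normalization) in SLMAP3-/- and 18614 to 23453 CPM in WT lines. Most of this sum was Col1a1, Col1a2, Vim and Fn1, and not every marker was high in every line. Dcn ran from 0.323 to 14.8 CPM and Lum from 0.113 to 18.5 CPM, both lowest in WT replicate 1. Pdgfra was at 17.4 CPM in that line and at 79.0 to 179 CPM in the others. Of 8 neuronal markers 5 passed the filter. The summed level of the 8 was 88.1 to 199 CPM in SLMAP3-/- and 125 to 292 CPM in WT lines, most of it Map2 and Stmn2, while the synaptic gene Snap25 had 0 to 2 counts. The summed markers of glia and neural crest (0.467 to 1.36 CPM), endothelium (9.45 to 40.5 CPM), epithelium (0.58 to 1.68 CPM), muscle (0.134 to 0.51 CPM) and blood (2.16 to 5.50 CPM) were lower. Most of the endothelial sum was Kdr and Tek, while Pecam1 and Cdh5 were at 0.227 CPM or less in each line. Fewer cells of a type and less RNA per cell cannot be told apart in such bulk libraries. The part of these cell types in the values below was not tested.

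Reads that fit more than 1 transcript are shared out by Salmon, which bears differently on the 3 clusters. The constant part common to all members is 2860 bases in the alpha and 2116 bases in the gamma cluster, and 0 in the beta cluster. Of the 31-base words of a gene's longest transcript, the share found in no other gene was 2.18% to 51.6% in the alpha cluster (median 36.4%). It was 32.2% to 78.7% in the gamma cluster (median 52.6%) and 77.5% to 100% in the beta cluster (median 88.2%). Low counts of alpha genes are therefore the least certain. The read-through models Gm42416, Gm37013 and Gm37388, which share sequence with the clusters, were at 0 counts in every line. Gm38182, which shares more sequence with them than the last 2 of these, had 5 to 30 counts per line. The antisense gene BC037039, which overlaps Pcdhgc3, had 43 to 151 counts, and whether the counting used strand is not given in the sources used here.

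The 3 clusters differed in how many of their genes were read in each line, with at least 10 counts taken as detected (0.161 to 0.2 CPM, depending on the line). All 22 gamma genes were detected in all 8 lines. Of the 22 beta genes 17, 16, 19 and 13 were detected in SLMAP3-/- replicates 1 to 4 and 16, 14, 21 and 19 in WT replicates 1 to 4. Every line had 12 of them in common, 9 were detected in some lines, and Pcdhb1 in none. Of the 14 alpha genes 4, 2, 1 and 1 were detected in SLMAP3-/- replicates 1 to 4 and 1, 4, 3 and 2 in WT replicates 1 to 4. Only Pcdhac2 among the alpha genes reached 10 counts in all 8 lines, 5 others did so in some lines and 8 in none. Pcdha8 had 0 counts in every line, which allows up to 3 counts, or 0.0482 to 0.06 CPM, per line, for counting error only.

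**Figure D1:**
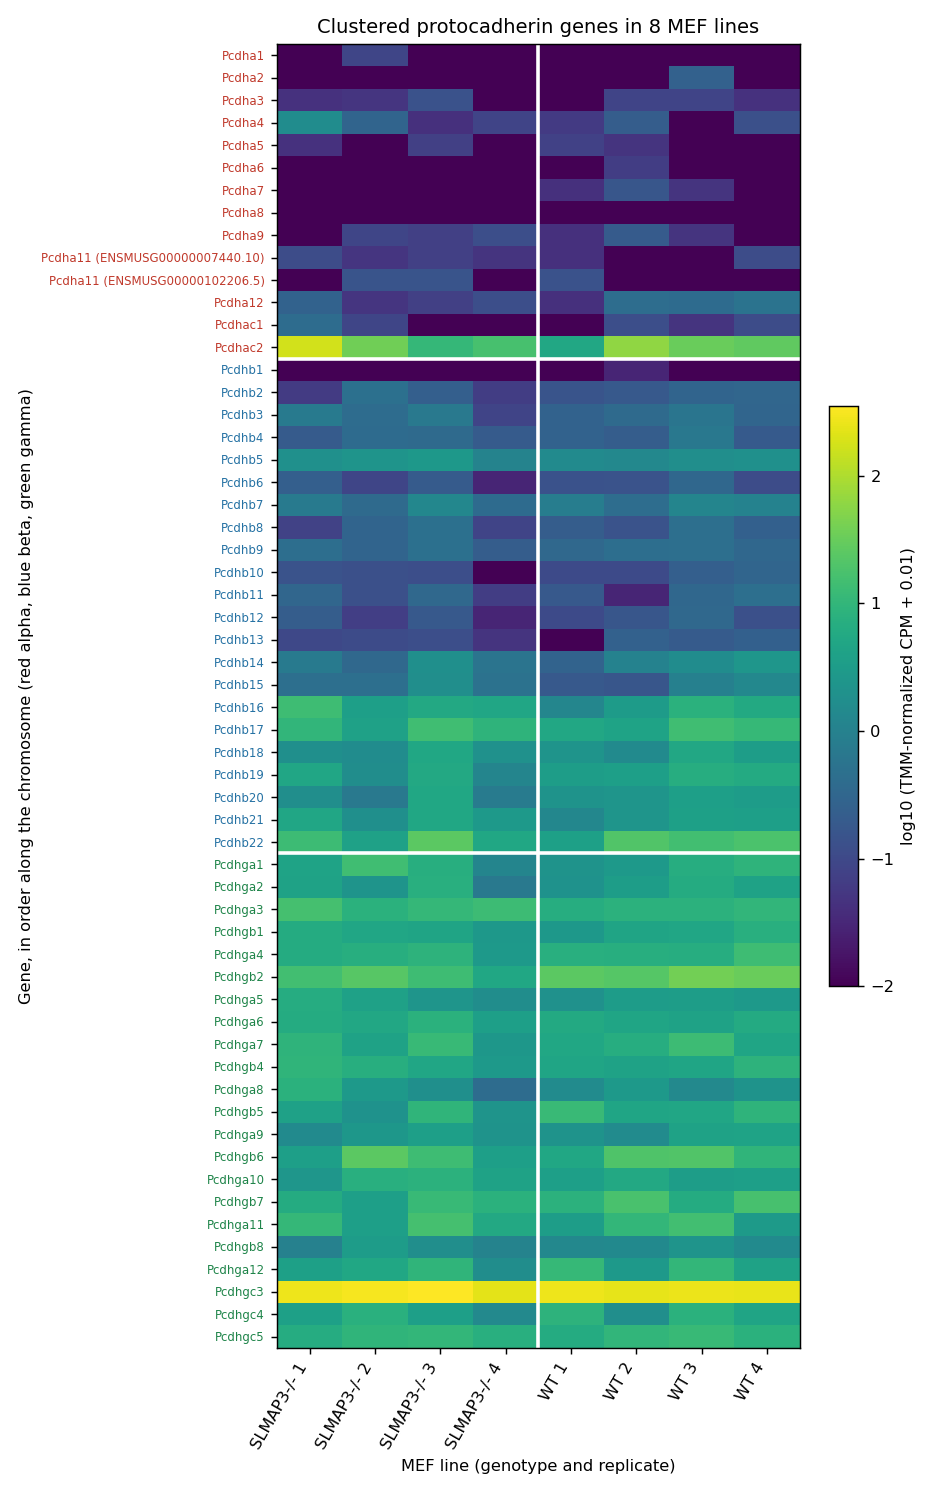
Level of each of the 58 clustered protocadherin genes (vertical axis, in order along the chromosome) in each of the 8 MEF lines (horizontal axis), coloured by log10 of TMM-normalized CPM plus 0.01. Pcdhac2 and Pcdhgc3 are the bright bands of the alpha and gamma clusters, the other alpha genes are dark in most lines, and the gamma genes are read in all 8 lines.

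Per kilobase of the longest transcript, Pcdhgc3 was far above every other gene of the 3 clusters. Its mean level over the 8 lines was 58.4 CPM per kb. Pcdhac2 followed at 7.80 and Pcdhgb2 at 4.70 CPM per kb. The median gene was at 0.00902 CPM per kb in the alpha, 0.123 in the beta and 1.26 in the gamma cluster. Within the beta cluster the genes Pcdhb1 to Pcdhb15 had a median of 0.0757 CPM per kb and Pcdhb16 to Pcdhb22, at the end nearest the gamma cluster, 0.692. Of the 22 beta genes the highest per length were Pcdhb22 (2.01 CPM per kb), Pcdhb17 (1.95) and Pcdhb16 (1.11). The Spearman correlation of level per length with order along the chromosome was 0.53 over 14 alpha, 0.69 over 22 beta and 0.028 over 22 gamma genes, whose neighbours share sequence. The A-type and B-type gamma genes lay close together, with medians of 1.18 CPM per kb over 12 Pcdhga and 1.29 over 7 Pcdhgb genes.

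Pcdhac2, a C-type gene known for the spacing of serotonergic axons, made up almost all of the alpha signal. It was at 176, 37.3, 10.5 and 16.9 CPM in SLMAP3-/- replicates 1 to 4 and at 5.32, 61.3, 32.2 and 27.9 CPM in WT replicates 1 to 4. The highest line, SLMAP3-/- replicate 1, was 33.1-fold above the lowest, WT replicate 1, with 10165 and 330 counts, and the genotypes overlapped. Pcdhac2 held 93.5% to 98.6% of the summed alpha counts of a line. The other C-type gene, Pcdhac1, and the 12 remaining alpha genes shared the rest.

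Pcdhac1 was highest at 0.398 CPM in SLMAP3-/- replicate 1 and at 0 counts in 3 lines. Pcdha4 was at 1.61 CPM in SLMAP3-/- replicate 1 and at 0.28 CPM or less in each other line, with 2.18% of its 31-base words its own. SLMAP3-/- replicate 1 was thus the highest line for Pcdhac2, Pcdhac1 and Pcdha4. Pcdha12, the only alpha gene besides Pcdhac2 that passed the filter on low counts, was at 0.26, 0.04, 0.0643 and 0.115 CPM in SLMAP3-/- replicates 1 to 4. In WT replicates 1 to 4 it was at 0.0323, 0.406, 0.378 and 0.527 CPM. WT replicate 1 was the lowest line of both Pcdha12 and Pcdhac2, and of 17.9% of all tested genes. For Pcdha12 it had 2 counts, as did SLMAP3-/- replicate 2, so only library size sets their order.

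In the beta cluster the gene with the most counts changed from line to line. Pcdhb22 was at 13.4, 3.96, 25.8 and 5.22 CPM in SLMAP3-/- replicates 1 to 4 and at 3.82, 20.8, 15.1 and 18.2 CPM in WT replicates 1 to 4. Its share of the summed beta counts ran from 15.98% in WT replicate 1 to 48.3% in WT replicate 2. Pcdhb17 was at 9.83, 4.02, 14.2 and 8.92 CPM in SLMAP3-/- replicates 1 to 4 and at 5.43, 4.33, 14.51 and 11.4 CPM in WT replicates 1 to 4. Pcdhb22 and Pcdhb17 were both low in SLMAP3-/- replicate 2 and WT replicate 1, and in WT replicate 2 Pcdhb22 was high where Pcdhb17 was low.

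Pcdhb16 was at 13.9, 3.76, 5.61 and 4.83 CPM in SLMAP3-/- replicates 1 to 4 and at 1.21, 3.10, 8.16 and 5.83 CPM in WT replicates 1 to 4. SLMAP3-/- replicate 1 stood highest for Pcdhb16 and WT replicate 1 lowest. Per length, Pcdhb16 led the beta cluster in SLMAP3-/- replicate 1 with 24.0% of the summed level, Pcdhb17 led in 4 lines, and Pcdhb22 in 3 lines, at 39.8% in WT replicate 2. Among the lower genes, Pcdhb14 ran from 0.274 to 2.43 CPM, Pcdhb15 from 0.155 to 1.75 CPM, Pcdhb19 from 1.15 to 6.85 CPM and Pcdhb21 from 1.24 to 5.06 CPM. SLMAP3-/- replicate 3 was the highest line for 8 of the 17 beta genes that passed the filter, or 47.1%, and for 13.0% of all tested genes.

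Pcdhgc3, a C-type gene with broad expression outside the nervous system, was the steady member of the gamma cluster. It was at 277, 303, 355 and 229 CPM in SLMAP3-/- replicates 1 to 4 and at 272, 242, 259 and 251 CPM in WT replicates 1 to 4. The highest and lowest lines, both SLMAP3-/-, differed 1.55-fold, and all WT lines lay between them. Pcdhgc3 held 58.5% to 75.5% of the summed gamma counts and 42.8% to 65.5% of the counts of all 58 genes.

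The other C-type gamma genes were far lower. Pcdhgc4, known for its part in neuronal survival, was at 3.81, 7.58, 3.70 and 1.38 CPM in SLMAP3-/- replicates 1 to 4 and at 8.79, 1.78, 8.08 and 4.59 CPM in WT replicates 1 to 4. Pcdhgc5 was at 6.63, 9.67, 10.3 and 7.27 CPM in SLMAP3-/- replicates 1 to 4 and at 6.29, 9.81, 11.6 and 8.06 CPM in WT replicates 1 to 4. Pcdhgc4 was lowest in SLMAP3-/- replicate 4 and low in WT replicate 2, while Pcdhgc5 stayed within a narrow range, and neither separated the genotypes.

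Among the A-type and B-type gamma genes, Pcdhgb2 led in all 4 WT lines, with 16.8% to 23.1% of their summed level per length. In SLMAP3-/- lines the leading gene was Pcdhga3 in replicates 1 and 4 (12.9% and 20.4%), Pcdhgb6 in replicate 2 (18.3%) and Pcdhga11 in replicate 3 (10.2%). Pcdhgb2 was close behind in replicates 1 to 3, second at 12.1%, 17.2% and 9.10%, and whether the order differed between genotypes was not tested. Pcdhgb2 was at 14.9, 23.2, 13.9 and 5.22 CPM in SLMAP3-/- replicates 1 to 4 and at 25.3, 22.2, 37.5 and 32.9 CPM in WT replicates 1 to 4. All WT lines except replicate 2 were above every SLMAP3-/- line for Pcdhgb2, and replicate 2 was below SLMAP3-/- replicate 2.

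Pcdhga3 was at 16.1, 8.14, 10.9 and 13.4 CPM in SLMAP3-/- replicates 1 to 4 and at 6.89, 8.34, 8.21 and 9.79 CPM in WT replicates 1 to 4. SLMAP3-/- replicate 2 lay among the WT lines for Pcdhga3. Pcdhgb6 was at 3.62, 24.8, 14.0 and 3.68 CPM in SLMAP3-/- replicates 1 to 4 and at 5.05, 19.4, 20.8 and 9.42 CPM in WT replicates 1 to 4. Each genotype had high and low lines for Pcdhgb6.

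Pcdhga1 was at 4.38, 14.53, 7.05 and 1.17 CPM in SLMAP3-/- replicates 1 to 4 and at 2.19, 2.75, 6.87 and 9.27 CPM in WT replicates 1 to 4. Pcdhga8 was at 7.98, 2.84, 1.85 and 0.403 CPM in SLMAP3-/- replicates 1 to 4 and at 1.58, 2.90, 1.36 and 2.18 CPM in WT replicates 1 to 4. The SLMAP3-/- lines held both the highest and the lowest value of Pcdhga1 and of Pcdhga8. Pcdhgb5 was at 4.05, 2.06, 9.29 and 2.22 CPM in SLMAP3-/- replicates 1 to 4 and at 11.9, 4.78, 4.84 and 8.93 CPM in WT replicates 1 to 4. SLMAP3-/- replicate 4 was the lowest line for 13 of the 22 gamma genes, Pcdhgc3 among them. This is 59.1% of gamma genes, where it was the lowest line for 16.6% of all tested genes.

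**Figure D2:**
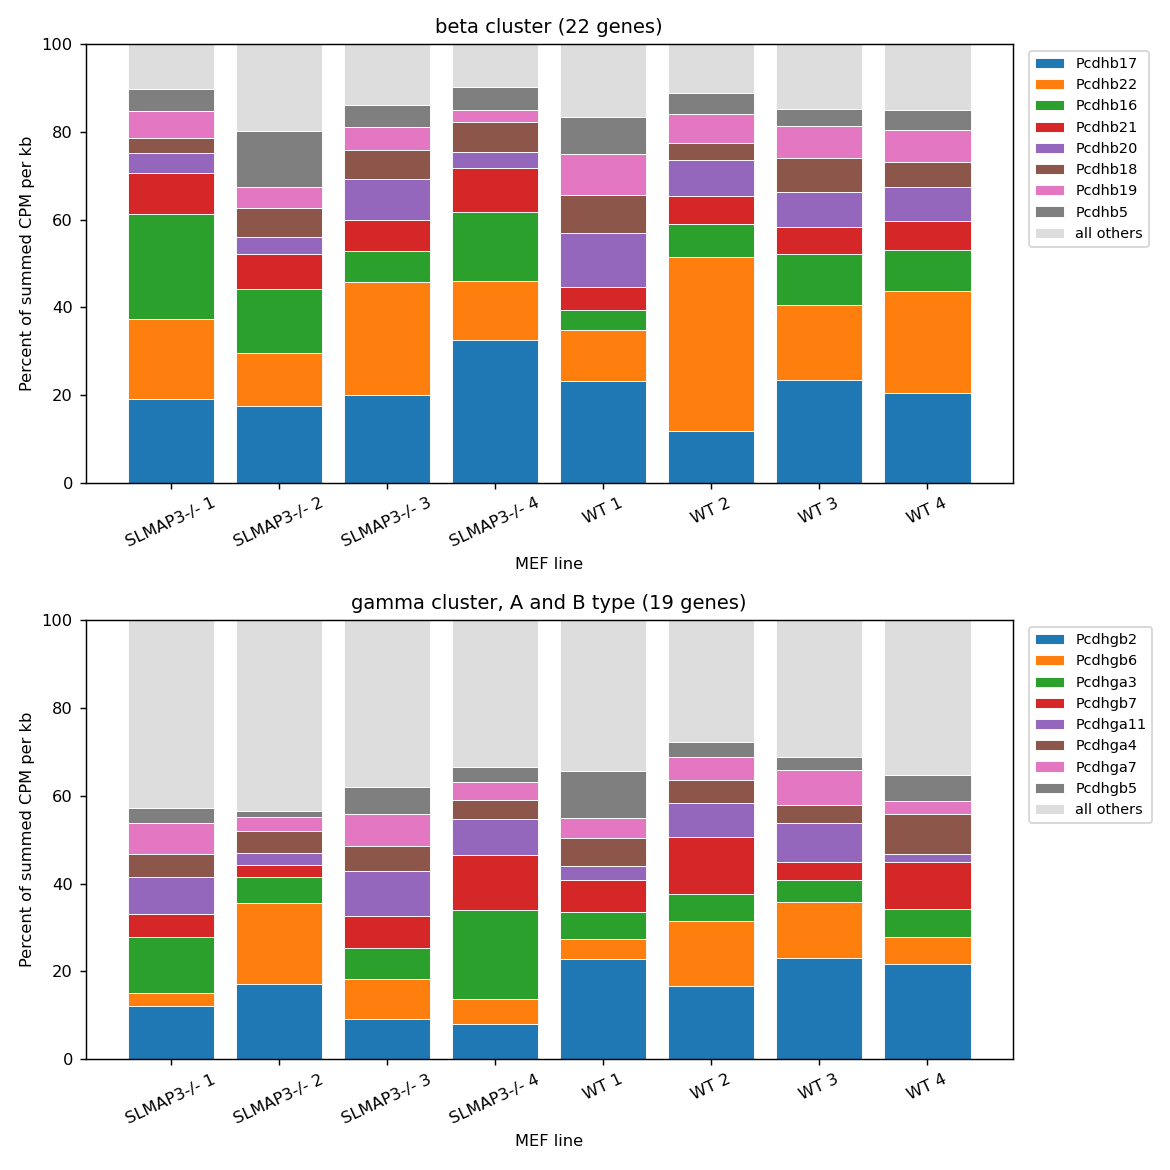
Share of the summed level per length (vertical axis, percent of CPM per kb) taken by each gene in each MEF line (horizontal axis), for 22 beta genes above and 19 A-type and B-type gamma genes below, with the 8 highest genes coloured and the others in grey. Pcdhb22 reaches 39.8% of the beta cluster in WT replicate 2, and Pcdhgb2 leads the gamma genes in the 4 WT lines.

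The spread between lines was wider for most of these genes than for genes of like abundance. Of the 41 that passed the filter on low counts, 25, or 61%, had an edgeR dispersion above the trend that edgeR fits over all genes by abundance, where 22.8% of all 15461 tested genes did. By cluster these were 2 of 2 alpha, 12 of 17 beta and 11 of 22 gamma genes. The median SD of log2 CPM over the 8 lines was 1.39 for alpha, 0.89 for beta and 0.69 for gamma genes. It was 0.27 for all tested genes, which were not matched for abundance. The alpha value rests on 2 genes, Pcdhac2 (1.55) and Pcdha12 (1.22). Pcdha12 had 2 to 31 counts per line, so the order of the clusters in SD is uncertain. With each line left out in turn the percentage above the trend was 53.3% to 66.7%, and all tested genes stood at 22.3% to 23.4%.

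Among the 28 members with at least 50 counts in every line, the highest line was a median of 4.41-fold above the lowest. It was 1.53-fold over the 11800 listed genes with such counts, which were not matched to the members for abundance beyond this floor. The range within the members ran from 1.55-fold for Pcdhgc3 to 33.1-fold for Pcdhac2. Pcdhac2 had the largest SD of the tested members (1.55 on the log2 scale) and Pcdhgc3 the smallest (0.20). Both are C-type genes and the highest of their clusters.

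**Figure D3:**
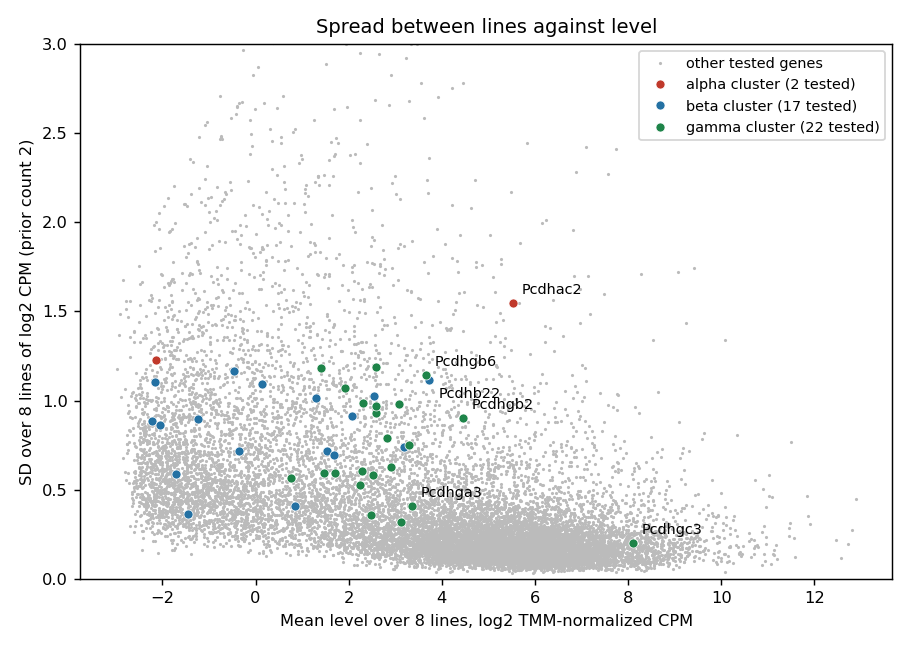
SD over the 8 lines of log2 CPM (vertical axis) against mean level in log2 CPM (horizontal axis) for the tested alpha, beta and gamma genes over all other tested genes in grey, of which 46 lie above the axis limit of 3. Pcdhac2 lies at an SD of 1.55 and Pcdhgc3 at 0.20, and 25 of the 41 members have a dispersion above the trend.

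No clustered protocadherin gene passed the test of SLMAP3-/- against WT lines. Of the 58 genes 41 were tested (2 alpha, 17 beta and 22 gamma), and 0 had an edgeR adjusted p under 0.05, with a smallest adjusted p of 1.00. Over all tested genes 0.00647% were called, which was Slmap alone. In 0 members did the genotypes fail to overlap, as they did in 1.25% of all tested genes. At an edgeR unadjusted p under 0.05 there were 2 members, Pcdhgb2 and Pcdhga3, where 1.81% of all tested genes had such a p. DESeq2 called 0 of the 47 members to which it gave an adjusted p. Its unadjusted p was under 0.05 for 2 members and 1.63% of genes, counted also over those without an adjusted p.

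For Pcdhgb2 the log2 fold change was -1.04 (standard error 0.39), at an unadjusted p of 0.0275 and an adjusted p of 1.00 by edgeR. For Pcdhga3 it was 0.55 (standard error 0.22), at an unadjusted p of 0.0392 and an adjusted p of 1.00 by edgeR. Pcdhgc3 had the smallest standard error of the members, 0.13, around a log2 fold change of 0.19, which was 0.077 without SLMAP3-/- replicate 3 and 0.28 without SLMAP3-/- replicate 4. Pcdhac2 had 0.93 (standard error 0.95), which turned to -0.55 without SLMAP3-/- replicate 1 and to -0.044 with the replicate number as a block. Pcdha12 had -1.46 (standard error 0.80), and -2.16 without SLMAP3-/- replicate 1 to -1.15 without WT replicate 4. The standard errors of the members had a median of 0.51, and those of all tested genes 0.20, so that changes of the size seen in most members could not be resolved.

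In the beta cluster the log2 fold changes ran from -0.62 for Pcdhb14 to 0.62 for Pcdhb16, with -0.57 for Pcdhb19 and 0.40 for Pcdhb21. Single lines moved all 4, with Pcdhb14 at -1.28 without SLMAP3-/- replicate 3 and -0.16 without WT replicate 4, and Pcdhb16 at 0.053 without SLMAP3-/- replicate 1 and 1.06 without WT replicate 3. Pcdhb19 ran from -0.93 without SLMAP3-/- replicate 3 to -0.28 without SLMAP3-/- replicate 4, and Pcdhb21 from 0.16 without WT replicate 1 to 0.62 without SLMAP3-/- replicate 2. In the gamma cluster Pcdhga8 had 0.70, Pcdhgb5 -0.79, Pcdhgc4 -0.50 and Pcdhgc5 -0.08. Pcdhga8 turned to -0.24 without SLMAP3-/- replicate 1, and Pcdhgc5 to 0.021 without that line and 0.068 without WT replicate 3. Pcdhgb5 ran from -1.45 without SLMAP3-/- replicate 3 to -0.48 without WT replicate 1, and Pcdhgc4 from -0.97 without SLMAP3-/- replicate 2 to -0.21 without SLMAP3-/- replicate 4. None of these passed the test. The median log2 fold change was -0.27 over 2 alpha, -0.21 over 17 beta and -0.10 over 22 gamma genes, with -0.14 over all 41 and -0.0014 over all tested genes. Of the 41, 17 were above and 24 below 0. The median over members tested was 0.072 without SLMAP3-/- replicate 4, 0.12 without WT replicate 3 and -0.36 without SLMAP3-/- replicate 3, so single lines set its sign and size.

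**Figure D4:**
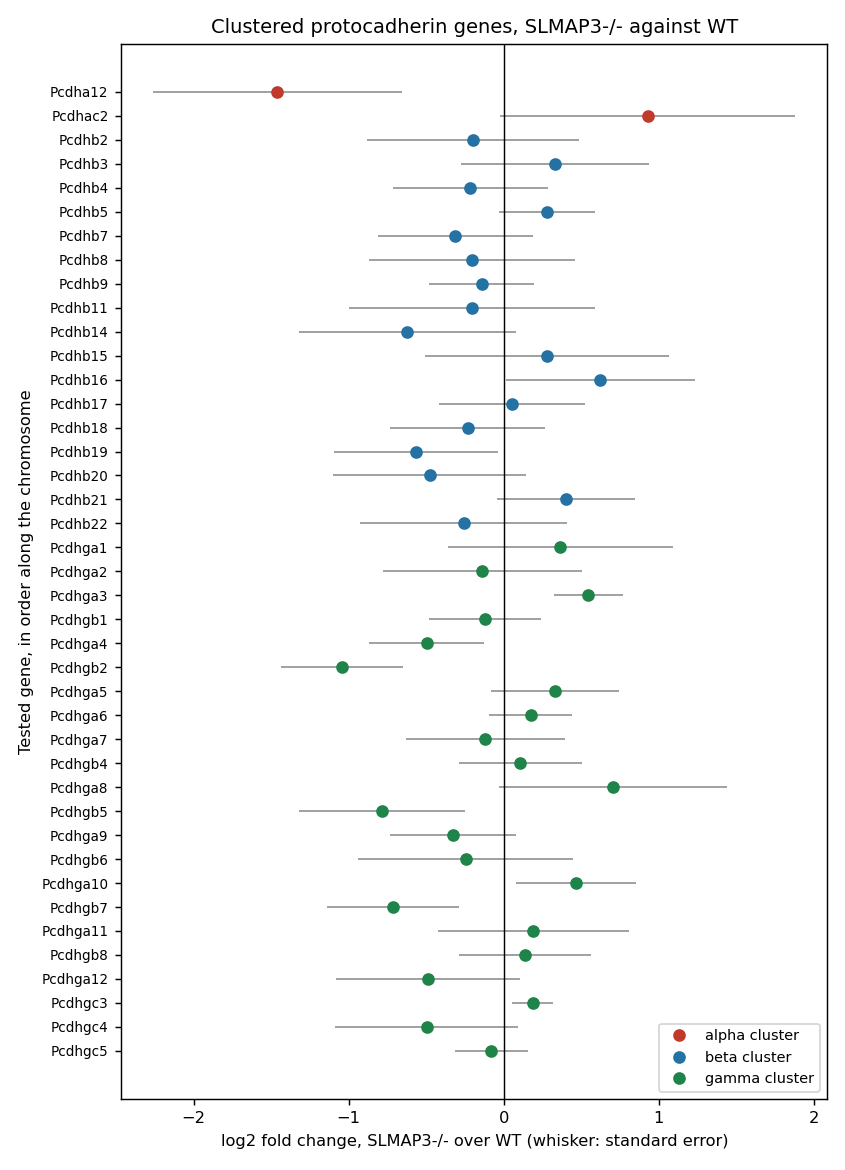
Log2 fold change of SLMAP3-/- over WT lines (horizontal axis, whiskers give the standard error) for the 41 tested clustered protocadherin genes in order along the chromosome (vertical axis). The values run from -1.46 for Pcdha12 to 0.93 for Pcdhac2, and no gene passed the test.

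Because reads can be divided between genes of a cluster, the clusters were also summed. The alpha sum was 178, 38.1, 11.1 and 17.3 CPM in SLMAP3-/- replicates 1 to 4 and 5.69, 62.5, 33.0 and 28.8 CPM in WT replicates 1 to 4. The means were 61.2 ± 79.0 and 32.5 ± 23.3 CPM (SD, n = 4 each), with a log2 ratio of 0.91 that became -0.55 without SLMAP3-/- replicate 1. The lines of the genotypes overlapped in all 3 sums.

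The beta sum was 57.0, 23.3, 77.1 and 28.9 CPM in SLMAP3-/- replicates 1 to 4 and 23.9, 43.0, 66.9 and 61.0 CPM in WT replicates 1 to 4. Its means were 46.6 ± 25.1 and 48.7 ± 19.4 CPM (SD, n = 4 each), a log2 ratio of -0.065, and its highest line was 3.32-fold above its lowest. The sign of this ratio changed without SLMAP3-/- replicate 2 (0.16), SLMAP3-/- replicate 4 (0.11), WT replicate 3 (0.13) or WT replicate 4 (0.065).

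The gamma sum was the steadiest, with 413, 457, 524 and 303 CPM in SLMAP3-/- replicates 1 to 4 and 400.0, 387, 443 and 418 CPM in WT replicates 1 to 4. Its means were 424 ± 92.7 and 412 ± 24.1 CPM (SD, n = 4 each), a log2 ratio of 0.043 that became -0.075 without SLMAP3-/- replicate 3. Without Pcdhgc3 the gamma means were 133 ± 41.5 and 156 ± 24.4 CPM, a log2 ratio of -0.23. All 58 genes together came to 532 ± 133 CPM in SLMAP3-/- and 493 ± 47.2 CPM in WT lines.

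**Figure D5:**
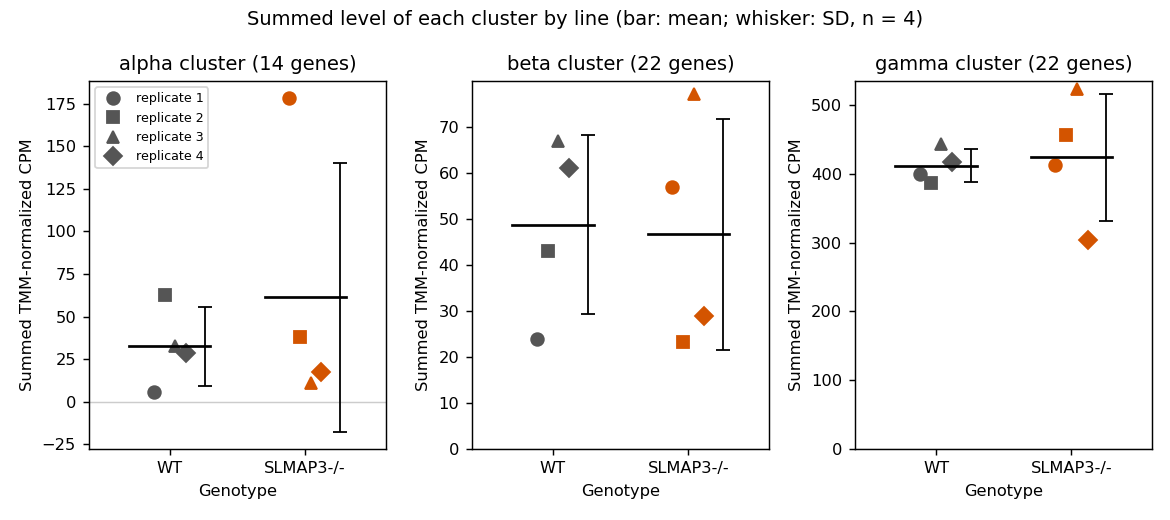
Summed TMM-normalized CPM (vertical axis) of the alpha, beta and gamma clusters by genotype (horizontal axis), with 1 point per MEF line, a bar at the mean and a whisker of 1 SD on either side (n = 4). SLMAP3-/- replicate 1 stands at 178 CPM in the alpha panel, and the genotypes overlap in all 3 panels.

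Genes listed as regulators of promoter choice were tested in the same fit. They were listed by class, as insulator, cohesin, its loader and release factor, silencing and DNA methylation. Whether each of them acts on these clusters was not tested. All 22 regulators passed the filter and 0 were called, with a median log2 fold change of -0.039. Ctcf, the insulator protein, was at 122 ± 16.5 CPM in SLMAP3-/- and 122 ± 8.00 CPM in WT lines. The log2 fold changes were 0.053 for Rad21, a cohesin subunit, -0.012 for Wapl, which releases cohesin from DNA, -0.037 for Smchd1, which silences clustered genes, and -0.13 for Dnmt3b, a DNA methyltransferase. Of 13 genes for partners or processing of these proteins, all were tested and 0 called, with 1 at an unadjusted p under 0.05. This was Ptk2b, a kinase that protocadherins bind, at 25.5 ± 3.74 CPM in SLMAP3-/- and 37.0 ± 9.30 CPM in WT lines, with an edgeR unadjusted p of 0.0181 and an adjusted p of 1.00. The regulators had 0 at that unadjusted p.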

How the data were processed

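The authors assigned reads of stranded mRNA libraries to the GENCODE M25 transcriptome of GRCm38 with Salmon, summed transcripts by gene, adjusted the sums for length, and deposited 1 estimated count per gene and line, with no normalization across libraries. Versions are not given in the sources used here. A second deposited table, the authors' DESeq2 comparison (base mean, fold change, standard error, p-value and adjusted p-value), was not used. The genotype of each line was taken from its sample labels.

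Estimated counts were rounded. In R 4.3.3 with edgeR 4.0.16, genes were kept by filterByExpr (minimum count 10), normalized by TMM, and tested by the quasi-likelihood test without covariates. Benjamini-Hochberg adjustment covered all 15461 tested genes, with a threshold of 0.05. Log2 CPM used a prior count of 2. Totals were 49879059 to 63322486 counts per line. Counting error depends on the counts of a gene in a line, and is largest in genes near 10 counts or below. The error from dividing shared reads between genes was not measured. Transcript lengths, positions and 31-base words came from GENCODE M21, also on GRCm38.

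The members, gene lists and tests were chosen with earlier results of these data known. Named genes are the C-type genes, those with an adjusted p under 0.05 or lines that do not overlap, the highest per length, the largest rises, falls and SDs in each cluster, and those with the highest count in a line. Pcdhga11, Ptk2b and genes printed for read sharing or as markers were named after their values were seen. Alternatives were DESeq2 1.42.0 as test or for size factors, other filters, unrounded counts, robust empirical Bayes, a replicate block, a threshold of 0.1, other detection floors, library size scaling, another prior count, median transcript length, and each line left out. Leaving out lines for the dispersion count was added after seeing the data. edgeR was tested on simulated data.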

Additional observations from a re-analysis of the deposited data

Results flagged for a closer look

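With 4 lines a genotype, 3 of 42 sets of 4 values held a line far from the others, meaning that its gap to the nearest line took up more of the whole range than Dixon's critical value allows. For sets chosen without regard to their values chance gives about 1 in 20, or 2.1 sets. That rate does not apply here, because many of the genes were named for their spread or fold change in these same values. The cluster sums also hold the same genes, so the number of flags cannot be set against chance. Pcdhac2 in SLMAP3-/- replicate 1, at 176 CPM, had a gap of 0.838 of the range, and the alpha sum of the same line, of which Pcdhac2 is nearly all, one of 0.8385. Pcdhb15 in SLMAP3-/- replicate 3, at 1.75 CPM against 0.44 to 0.518 CPM in the other SLMAP3-/- lines, had a gap of 0.941.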

How the results depend on the processing

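In every alternative fit, and in the main fit at a threshold of 0.1, 0 members were called. DESeq2 called 11 genes in all where edgeR called 1. Of 268 alternative log2 fold changes of 18 named members, 252 kept their sign, and the cause of the 16 reversals was not tested. Some alternatives, such as robust empirical Bayes, leave the fold change as it was, so the count of kept signs overstates stability. Replicate numbers did not pair the lines: the correlations of same-numbered lines were -0.157, 0.0585, 0.187 and -0.00323, and 1 of 4 SLMAP3-/- lines correlated best with its own number. A different number, shared in the deposited column headings by WT replicate 4 and SLMAP3-/- replicate 3, has no meaning given in the sources used here, and this pair correlated at 0.133. With the replicate block 0 members and 0 genes were called and Pcdhac2 was at -0.044. With lines left out in turn the ranges were -0.55 to 1.47 for Pcdhac2, -0.47 to 0.87 for Pcdhb15, -0.23 to 0.39 for Pcdhb17, -0.94 to 0.040 for Pcdhb22, -0.32 to 0.78 for Pcdhga1, -0.24 to 1.07 for Pcdhga8, -0.94 to 0.050 for Pcdhgb6 and -0.21 to 0.068 for Pcdhgc5, and -0.55 to 1.45 for the log2 ratio of the alpha sum. The gamma ratio was -0.23 without the C-type genes. The median number of alpha genes detected per line, 2 at 10 counts, was 7.5 at 1 count, 1 at 50 counts and 1 at 0.5 CPM. That of beta genes, 16.5 at 10 counts, was 9 at 50 counts and 10.5 at 0.5 CPM.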

Other observations

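The non-clustered protocadherins, which lie as single genes elsewhere in the genome, were read beside the clusters. Of 12 such genes 8 passed the filter on low counts and 0 were called by edgeR, with 0 at an unadjusted p under 0.05 and a median log2 fold change of -0.18. Pcdh19, a gene known for its role in early-onset epilepsy, was at 81.0 ± 35.3 CPM in SLMAP3-/- and 92.6 ± 41.9 CPM in WT lines (SD, n = 4 each). Pcdh18 was at 55.8 ± 24.0 and 62.8 ± 18.5 CPM and Pcdh7 at 51.9 ± 9.33 and 62.6 ± 25.5 CPM. Pcdh9 ran from 0.0645 CPM in WT replicate 1 to 5.06 CPM in SLMAP3-/- replicate 1, the same lines that were lowest and highest for Pcdhac2. Pcdh20 had both of these lines too, and no other tested gene of the list had both. Pcdh18 was highest in SLMAP3-/- replicate 1, at 90.9 CPM, and Pcdh7 was lowest in WT replicate 1, at 27.9 CPM. Pcdh19 was highest in WT replicate 1, at 151 CPM. Over all tested genes WT replicate 1 was the lowest line for 17.9% and SLMAP3-/- replicate 1 the highest for 10.9%. The non-clustered genes were named after their values were seen.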
